A study of Mus musculus with 6 samples.

Results

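Accessible chromatin was described at the potassium channel genes of undifferentiated mouse embryonic stem cells. The members were the protein-coding RefSeq genes of GRCm38.p6 whose symbol is Kcn followed by letters and a closing number, which gave 92 of 21883 protein-coding genes on chromosomes 1 to 19, X and Y. The rule reads gene symbols alone. Each ATAC-seq peak near a member was put in 1 of 3 classes: at a gene end (overlapping a window of 1 kb either side of either annotated end), in the body, or elsewhere within 50 kb.

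Potassium channels let potassium ions leave or enter cells and set the resting potential. In neurons and muscle they end each action potential and set the firing rate, and most members are known from such excitable cells or from epithelia. A working channel holds pore-forming subunits, which carry the ion path, and often auxiliary subunits, which change its gating or delivery to the membrane.

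ATAC-seq uses the Tn5 transposase to insert adapters into open DNA. The cells were E14 mouse embryonic stem cells with an NSD1-dTAG knock-in, which fuses the histone methyltransferase NSD1 to a tag that the compound dTAG-13 marks for degradation. The library analysed had received no dTAG-13 (0 h) and was grown on gelatin in 2i/LIF, a medium with inhibitors of MEK and GSK3 that holds the cells in naive pluripotency. Not analysed here were 5 further samples, 1 each: the same cells after 1, 6 or 24 h in dTAG-13 (500 nM), and embryoid bodies, aggregates of differentiating cells, at day 6 with or without the compound. With 1 library there is no replicate and no test. The labels do not say whether the line is 1 clone.

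The height of a peak is given as its pileup, the count of overlapping reads or fragments at the summit, recovered from the authors' fold enrichment and p-value of that peak. The library's 77533 peaks on these chromosomes had a median pileup of 23 (quartiles 14 and 45). No listed peak fell under a pileup of 6, and sites weaker than the calling threshold were not detectable. Poisson 95% intervals of a pileup cover counting error only, and Wilson 95% intervals of a share reflect the number of genes. To check the cell type, 10 pluripotency markers were read: 9 were open at an end (median pileup 114), and Esrrb, the other, had 22 peaks in its body. Of 8 heart and skeletal muscle markers 2 had a gene-end peak, Ckm at 63 and Myod1 at 15. Of 8 neuron markers 6 had one (75%), and of 5 fibroblast markers 2, beside 66.5% of all protein-coding genes. The neuron share was near that of all genes, so the neuron list could not check the cell type.

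Most potassium channel genes had an accessible end, but their peaks were low. Peaks lay at an end of 66 of 92 members (71.7%, Wilson 61.8 to 79.9), beside 66.5% of all protein-coding genes, a value inside that interval. The tallest gene-end peak of those 66 genes had a median pileup of 35.5, against 66 in the whole coding set. Over all members, with genes lacking a peak placed below the rest, the median was 25, against 37. A pileup of at least 100 was reached by 3 members (3.26%), against 17.3% of all protein-coding genes. A further 16 members lay between 50 and 99, 34 between 20 and 49, and 13 under 20. Counting only pileups of 20 or more, 53 members (57.6%) and 60.4% of all protein-coding genes had a gene-end peak.

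Peaks away from the ends, inside the gene body, were present in 62 of 92 members (67.4%, Wilson 57.3 to 76.1), against 46.3% of all protein-coding genes. Members were longer, with a median of 34.5 kb against 17.2 kb. By length the share with a body peak was 36.8% against 9.96% under 10 kb, 52.2% against 50.8% from 10 to 30 kb, 74.1% against 75.7% from 30 to 100 kb, and 100% against 91.6% over 100 kb. The member share was thus above that of all genes mainly under 10 kb, where it rests on 7 of 19 genes. Length was not matched within that bin, where the median was 6.053 kb for members against 3.705 kb. Of the 92, 46 had peaks in both places, 20 at an end only and 16 in the body only. The other 10 had neither, or 10.9% (6.01 to 18.9) beside 24.1% of all protein-coding genes. By length, 10.5% of members and 47.1% of all genes had neither under 10 kb, 21.7% and 16.7% from 10 to 30 kb, and 11.1% and 8.12% from 30 to 100 kb, so the member share was lower under 10 kb and not from 10 to 100 kb. With a pileup of 20 or more required, the shares over all lengths were 28.3% and 30.8%. The 10 were Kcna10, Kcnv2, Kcnj5, Kcnj13, Kcnj15, Kcnj16, Kcnk16, Kcne4, Kcnmb1 and Kcnmb3. Kcnv2, a silent subunit of photoreceptors, was the single member with no peak in any class, and the peak closest to it lay 50.3 kb from its end. Just inside the 1 kb limit were the peaks of Kcnd1 (0.855 kb from an end), Kcnv1 (0.894 kb) and Kcnmb2 (0.915 kb). Just outside it were those of Kcnk13 (1.24 kb), Kcnh1 (1.29 kb) and Kcnk1 (1.42 kb).

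**Figure D1:**
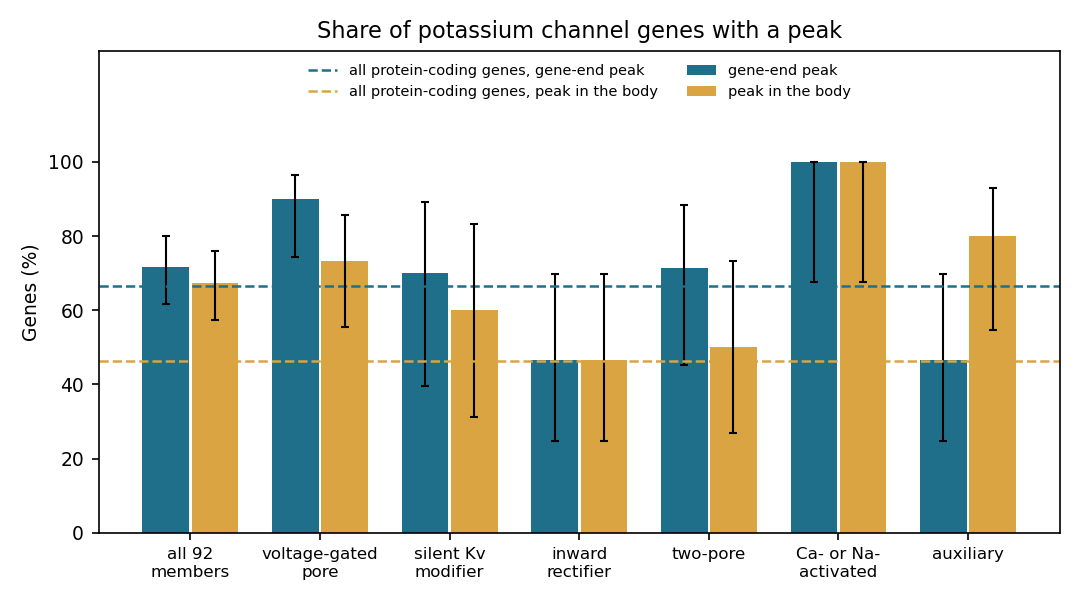
Bars show the percentage of genes with a gene-end peak (blue) and with a peak in the body (yellow) for all 92 members and for each of 6 roles, with Wilson 95% intervals. Dashed lines mark all protein-coding genes (66.5% and 46.3%). The voltage-gated group and the group named calcium- or sodium-activated, set by symbol prefix, stand highest for gene ends. The inward rectifiers and auxiliary subunits stand lowest at 46.7%, the latter at 73.3% with windows of 2500 bp.

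Voltage-gated pore subunits, which open on depolarization, had a gene-end peak in 27 of 30 genes (90%, Wilson 74.4 to 96.5), mostly a low one (median 33). The exceptions were Kcna2, Kcna10 and Kcnh1. Of all protein-coding genes 66.5% had one, and of those of 30 to 100 kb 77.9%, a value inside that interval. The median length of the group was 39.4 kb. The tallest peak assigned to the group, at Kcnh6, had a pileup of 144 (121 to 170) and lay at chromosome 11, 106036484 to 106037654. It was shared with the end of Dcaf7, while the start of Kcnh6 itself had 20. Next came Kcnq3 at 58 (44.04 to 74.98), Kcnd3 at 56 (42.3 to 72.7) and Kcna3 at 55 (41.4 to 71.6). These encode a subunit of the neuronal M current, a transient-current channel of heart and brain, and the main voltage-gated channel of T cells.

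Neuronal genes of the group lay at different heights. Beside Kcnq3 at 58, Kcna1, whose channel lies along axons, had a pileup of 24 (15.4 to 35.7). Kcnd2, a dendritic channel, had 25 (16.2 to 36.9), while Kcnc1, of fast-spiking neurons, reached 51. The intervals of Kcna1 and Kcnd2 overlap, so these could not be ordered at this depth. Of the cardiac genes, Kcnh2, which encodes the rapid delayed rectifier, had 53 (39.7 to 69.3) at its first annotated base and 10 near its listed start, which lies inside the gene. Kcnq1, which encodes the slow one, had 15 (8.40 to 24.7). Kcna5, of the atrium, had the lowest gene-end peak of any member, at 6.

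The silent modifiers, which form channels only together with other pore subunits, had a gene-end peak in 7 of 10 genes (70%, 39.7 to 89.2). The 66.5% of all protein-coding genes lay inside that interval. Kcns2 and Kcns3 both had a pileup of 58 (44.04 to 74.98), Kcng3 had 45 (32.8 to 60.2) and Kcng2 had 41 (29.4 to 55.6). All 4 intervals overlap. Kcnv1 was the lowest at 18, and Kcns1, Kcng4 and Kcnv2 had none.

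Inward rectifiers, which pass potassium more easily into the cell and hold the resting potential, had a gene-end peak in 7 of 15 genes (46.7%, 24.8 to 69.9). That interval held the 66.5% of all protein-coding genes. Kcnj2, the main rectifier of heart and skeletal muscle, stood above the others with a pileup of 86 (68.8 to 106) and a fold of 16.2, the highest fold at any member's end, at chromosome 11, 111065277 to 111066427. Kcnj4 (52), Kcnj10 (49), of glia, and Kcnj12 (48) followed, and Kcnj6 had 45, at its last base, and Kcnj8 had 37. The listed start of Kcnj12, which lies inside the gene, had no peak. Kcnj11, the pore of the ATP-sensitive channel of pancreatic beta cells, had 15 (8.40 to 24.7). The 8 without were Kcnj1, of the kidney tubule, Kcnj3, Kcnj5, Kcnj9, Kcnj13, Kcnj14, Kcnj15 and Kcnj16. Kcnj3 and Kcnj5 encode the subunits of the atrial channel that acetylcholine opens.

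The two-pore channels carry the background leak of potassium, and 10 of 14 had a gene-end peak (71.4%, 45.4 to 88.3). Here too the interval held the 66.5% of all protein-coding genes. Kcnk5, an acid-sensing channel of kidney and other epithelia, had a pileup of 118 (97.7 to 141) at chromosome 14, 20181524 to 20182135. It was the tallest gene-end peak of any member that lay at no other coding gene's end. Its interval did not overlap that of the next gene, Kcnk12, at 53 (39.7 to 69.3). Kcnk3 had 47. Kcnk4 had 41 at the end opposite its listed start, in a peak shared with Catsperz, and 18 at that start. Kcnk18 and Kcnk10 were the lowest at 14 and 15, but a listed start inside Kcnk10 had 49. Kcnk1, Kcnk2, Kcnk13 and Kcnk16 had none at an end.

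The group named calcium- or sodium-activated was set by symbol prefix (Kcnma, Kcnn, Kcnt and Kcnu). All 8 genes had both a gene-end and a body peak (100%, Wilson lower limit 67.6). Their median length was 121 kb. Of all protein-coding genes over 100 kb, 79.9% had a gene-end peak and 91.6% a body peak. Kcnn1, a small-conductance calcium-activated channel of the brain, had a pileup of 98 (79.6 to 119) at chromosome 8, 70865295 to 70866205, while the taller of its listed starts inside the gene had 22. Kcnu1, a sperm channel grouped here by its prefix and not by what opens it, had 83 (66.1 to 103). That peak also lay at the end of Ash2l, and the other end of Kcnu1 had 19. Kcnt2, opened by sodium, had 62 (47.5 to 79.5) and Kcnma1, the large-conductance channel of smooth muscle and brain, had 61 (46.7 to 78.4). Kcnn3 had 50, Kcnn2 had 19 and Kcnt1 had 11 (5.49 to 19.7). Kcnn4, of blood cells and epithelia, had 25 at the end opposite its listed start, which had 8.

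Auxiliary subunits had a gene-end peak in 7 of 15 genes (46.7%, 24.8 to 69.9) and a body peak in 12 of 15 (80%). Their median length was 37.8 kb, and 75.7% of all protein-coding genes of 30 to 100 kb had a body peak. For gene ends, the 66.5% of all protein-coding genes lay inside the interval of the auxiliary share. With windows of 2500 bp in place of 1 kb, 73.3% of these subunits and 72.4% of all protein-coding genes had a gene-end peak. At 1 kb, none of the 4 Kcne genes, small partners of Kcnq1 and other pores, had one. Kcnab2, a cytoplasmic beta subunit, had a pileup of 100 (81.4 to 122) in a peak shared with Nphp4, and Kcnab3 had 61 (46.7 to 78.4) in one shared with Trappc1. Kcnmb4 and Kcnip2 both had 32 (21.9 to 45.2), Kcnip3 and Kcnip4 both had 25, and Kcnmb2 had 9. A listed start inside Kcnip3 had a taller peak, of 68. Kcnip genes encode calcium sensors that bind Kcnd channels, and Kcnmb genes encode partners of Kcnma1. In all, the tallest gene-end peak was shared with another coding gene's end at 6 members, among them Kcnh6, Kcnk4, Kcnu1, Kcnab2 and Kcnab3. A gene-end peak of their own remained at 63 of the 66.

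**Figure D2:**
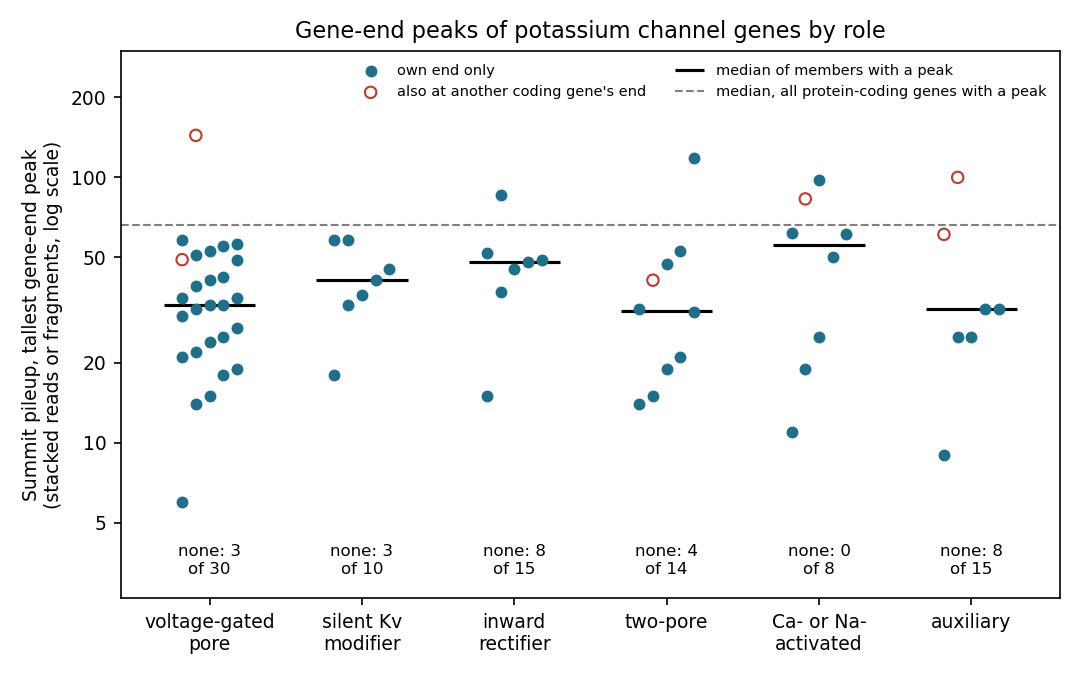
Each point is 1 gene, placed by the summit pileup of its tallest gene-end peak on a log axis. Open red circles mark peaks that also lie at another coding gene's end, black bars the median of members with a peak (from 31.5 for two-pore to 55.5 for calcium- or sodium-activated channels), and the dashed line the value for the whole coding set, 66. The text under each group gives the genes with no gene-end peak.

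The accessible end was mostly the start. The RefSeq promoter table lists starts and strands for 67 of the 92 members, and 52 of them had a peak within 1 kb of a listed start (77.6%, Wilson 66.3 to 85.9), beside 66.5% of the 17491 protein-coding genes with a listed start. With a pileup of at least 20 required, the member share at a listed start was 58.2%. The share of all genes at that setting was not computed. The opposite annotated end had a peak in 9 of 67 (13.4%, 7.23 to 23.6), beside 16.6%. No member had a peak at the opposite end alone. Of the 26 members without a gene-end peak, 9 had one at a listed start that lies inside the gene, so 75 of 92 had a peak at an end or a listed start. Kcnh1, a relative of Kcnh2 in brain, was the tallest of these 9 with a pileup of 48, followed by Kcnk13 at 41 and Kcne3 at 40. Kcna2 (25), Kcnk1 (23), Kcnk2 (19), Kcnj3 (18), Kcnip1 (15) and Kcnab1 (9) were the others.

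Nearly all starts rich in CpG dinucleotides carried peaks, and nearly all starts without a peak were CpG-poor. Many CpG-poor starts had peaks too. CpG content is given as observed over expected, the number of CpGs relative to that from the C and G content, in the window of 250 bases before to 50 after a start. The 92 listed windows of these 67 members had a median of 0.434, against 0.567 over 21262 windows of protein-coding genes. It was 0.535 for the 65 member windows with a peak and 0.249 for the 27 without. Over all windows the medians lay further apart, at 0.755 with a peak and 0.176 without. All 13 windows at 0.8 or more had a peak, with a median pileup of 45, against 98.98% of all such windows with a median of 80. In the bin from 0.6 to 0.8 the medians were 35 and 73, and from 0.4 to 0.6 they were 32 and 52. The member medians were thus below those of all windows within each of these bins. From 0.2 to 0.4, 15 of 25 member windows had a peak (60%, Wilson 40.7 to 76.6), against 36.1% of all windows. Below 0.2, 6 of 16 member windows had a peak (37.5%, Wilson 18.5 to 61.4), against 11.3% of all windows. Windows of 1 gene can share a peak, for which the intervals make no allowance. Of the 6 below 0.2, those of Kcnc2, Kcnk2 and Kcnq5 took the same peak as a CpG-richer start of the same gene. At Kcnc2 the richer starts reached a ratio of only 0.275. Kcns1 was the only member whose window above 0.6 had no peak.

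The contrast can be read in the 250 bases before the start, printed 5′ to 3′ on the gene's strand from RefSeq (GRCm38.p6) with each CpG in capitals. Kcnk5 (chr14:20181783-20182032, minus strand, 19 CpGs, pileup 118) and Kcng3 (chr17:83631896-83632145, minus strand, 41 CpGs, pileup 45) stand for accessible CpG-rich starts. Kcnj6 (chr16:94997697-94997946, minus strand, 26 CpGs) is the start with the highest CpG ratio, 1.04 in the 300-base window, and had a pileup of 15. Kcna10 (chr3:107182893-107183142, plus strand, 0 CpGs) and Kcnj15 (chr16:95257308-95257557, plus strand, 1 CpG) had no peak.
Kcnk5: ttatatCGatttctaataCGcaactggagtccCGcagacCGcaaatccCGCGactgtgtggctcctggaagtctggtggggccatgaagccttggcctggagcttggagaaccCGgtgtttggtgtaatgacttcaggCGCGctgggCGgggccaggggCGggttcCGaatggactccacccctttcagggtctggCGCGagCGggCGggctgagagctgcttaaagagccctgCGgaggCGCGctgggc
Kcng3: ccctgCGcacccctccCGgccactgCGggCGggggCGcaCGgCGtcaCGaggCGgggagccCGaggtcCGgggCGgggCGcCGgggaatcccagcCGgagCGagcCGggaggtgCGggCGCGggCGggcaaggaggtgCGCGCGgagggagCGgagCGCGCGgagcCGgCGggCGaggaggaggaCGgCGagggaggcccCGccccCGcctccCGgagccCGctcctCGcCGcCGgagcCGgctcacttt
Kcnj6: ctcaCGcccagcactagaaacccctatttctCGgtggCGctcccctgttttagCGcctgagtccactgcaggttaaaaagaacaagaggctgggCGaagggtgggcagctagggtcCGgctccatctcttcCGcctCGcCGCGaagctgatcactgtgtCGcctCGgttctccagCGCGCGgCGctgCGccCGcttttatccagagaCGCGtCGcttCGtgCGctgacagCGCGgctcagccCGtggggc
Kcna10: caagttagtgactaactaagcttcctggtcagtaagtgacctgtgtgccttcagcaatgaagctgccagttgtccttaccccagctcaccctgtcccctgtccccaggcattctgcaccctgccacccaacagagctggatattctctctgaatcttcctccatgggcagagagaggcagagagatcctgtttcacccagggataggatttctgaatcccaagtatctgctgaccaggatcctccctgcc
Kcnj15: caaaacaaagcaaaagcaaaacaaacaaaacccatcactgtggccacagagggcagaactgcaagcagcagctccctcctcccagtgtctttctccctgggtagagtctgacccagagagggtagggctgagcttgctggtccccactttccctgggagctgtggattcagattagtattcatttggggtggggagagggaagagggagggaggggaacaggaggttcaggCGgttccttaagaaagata

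**Figure D3:**
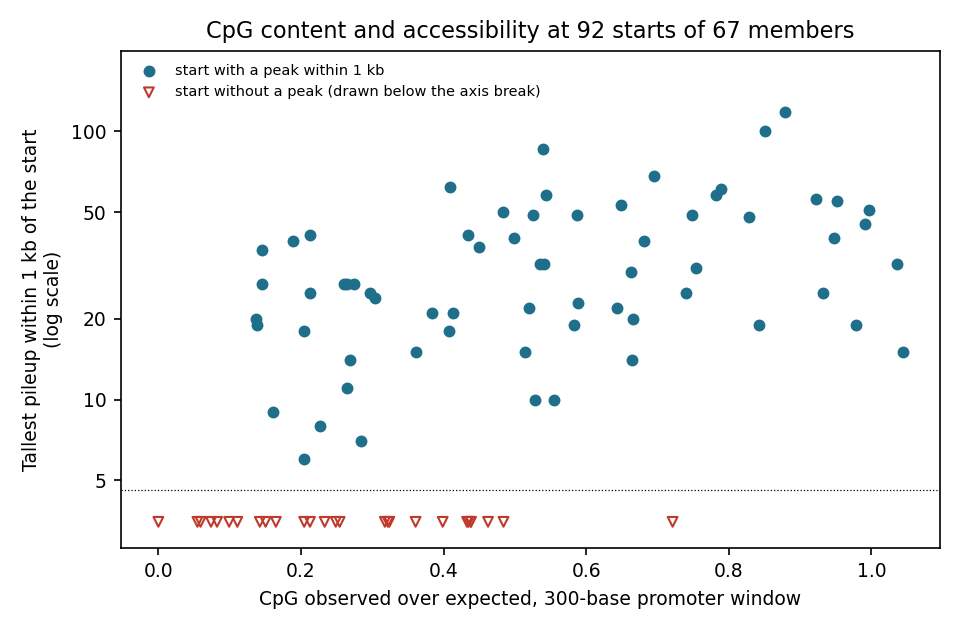
Each blue point is 1 of the 92 listed starts of 67 members, placed by the CpG ratio of its promoter window and by the tallest pileup within 1 kb on a log axis. Red triangles below the dotted line are the 27 starts without a peak, of which 1 lies above a ratio of 0.6. Points above 0.8 reach from 15 to 118.

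Short sequence matches were counted in the same windows on both strands, as a description of letters and not of binding. TATAAA, the letters of a TATA box, was in 5 of 92 member windows (5.43%), against 12.6% of all windows. These were windows of Kcnj9, Kcnj13, Kcnj15, Kcnj16 and Kcnab1, and none of the 5 had a peak. GGGCGG, bound by SP factors, was in 44 windows (47.8% against 46.2%), of which 39 had a peak. Of all 92 member windows 65 had a peak. Windows with both a motif and a peak were not counted over all genes, so a tie between motif and peak was not tested. CCGGAAG, of ETS factors, was in 3 (3.26% against 11.6%), and CCAAT was in 28 (30.4% against 38.2%). CACGTG was in 7 (7.61% against 7.84%). TGACGTCA, of CREB factors, was in none (2.23% of all windows), nor was the palindrome of NRF1 (1.33%). For REST, the repressor of neuronal genes outside the nervous system, a consensus of both site parts was in no member window and in 0.0282% of all windows. The first part alone, TTCAGCACC, was in 1 (1.09% against 0.414%), at Kcnh6, and the second part alone in none (0.183% of all windows). The consensus overlaps both parts.

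Long channel genes held at least 1 internal peak each but few for their length. All 23 members over 100 kb had a body peak, beside 91.6% of all protein-coding genes of that length. They held 100 body peaks, or 1.15 per 100 kb of gene length (Poisson 0.937 to 1.40), against 2.35 (2.31 to 2.39). The Poisson intervals of density treat peaks as independent and make no allowance for spread between genes. Single members over 100 kb ran from 0.194 at Kcnd2 to 4.35 at Kcnj6. The median density per gene was 1.03, against 1.92. Members in this class were longer (median 321 kb against 172 kb). Split further, the densities were 1.97 (1.39 to 2.70) against 3.23 for genes of 100 to 300 kb, and 0.918 (0.704 to 1.18) against 1.51 for genes over 300 kb. With body peaks under a pileup of 20 left out, the members over 100 kb had 0.369 per 100 kb, against 1.13 over all protein-coding genes of that length. Kcnip4 had 5 body peaks in 1136 kb, and Kcnd2 and Kcnh7 had 1 each in 514 and 491 kb. Kcnj6 (11), Kcnip1 (10), Kcnma1 (9), Kcnmb2 (8) and Kcnq1 (7) had the most. In shorter genes the density was not lower: 4.59 (3.56 to 5.83) against 4.08 from 30 to 100 kb and 6.00 (3.88 to 8.86) against 4.40 from 10 to 30 kb. Under 10 kb it was 7.79 (3.56 to 14.8) against 2.73, from 9 peaks. Members under 10 kb were longer than all genes in that bin (median 6.053 kb against 3.705 kb).

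**Figure D4:**
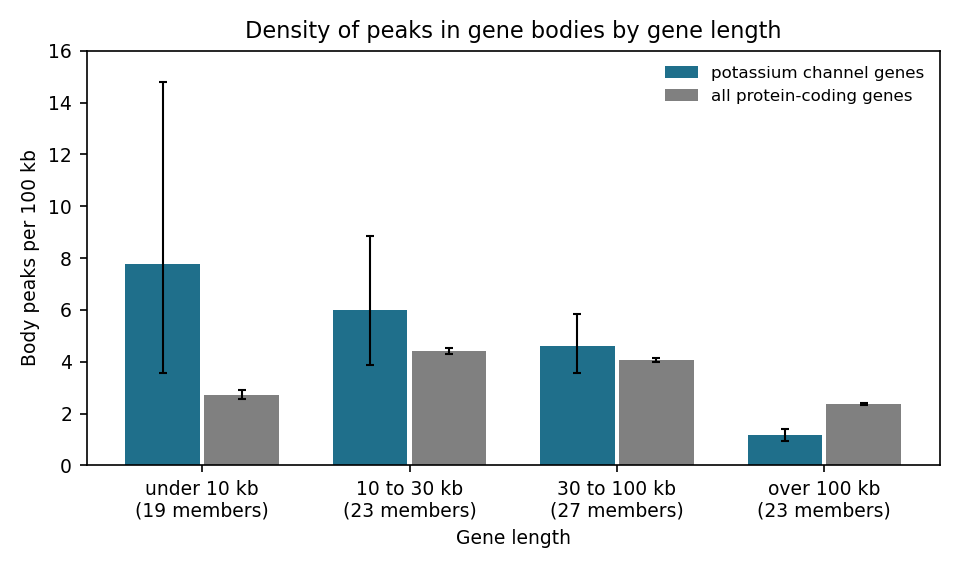
Bars give body peaks per 100 kb of gene length in 4 length classes, for members (blue) and all protein-coding genes (grey), with exact Poisson 95% intervals. The intervals make no allowance for spread between genes. From 10 to 100 kb the member intervals hold the value of all genes, under 10 kb the member bar is higher, and over 100 kb it is lower (1.15 against 2.35).

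Body peaks were lower than gene-end peaks, with a median pileup of 18 over 201 peaks against 32 over 83. The same medians over all protein-coding genes were 20 and 54. Of the 201, 25 (12.4%) lay within 1 kb of a listed start of any gene. In 16 of the 46 members with both, the tallest body peak exceeded the tallest gene-end peak. Some of these body peaks lay at a listed start inside the gene, as at Kcnk10 (49) and Kcnip3 (68). Neither of these counts was made over all protein-coding genes, so they are not shown to be particular to the members. Kcnt2 had a body peak of 106 (86.8 to 128) and a fold of 19.7, the highest of any member's body peaks, at chromosome 1, 140429320 to 140429699, 184 kb into the gene. Kcnk3 had one of 88 and Kcnk5 one of 84, 3.05 kb inside its start.

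Kcnq1 had a low end and a tall body peak. The gene spans chromosome 7, 143106877 to 143427050, and pairs with Kcne1 in the heart. Its gene-end peak had a pileup of 15 (8.40 to 24.7), while the body peak 17.6 kb inside, at 143124136 to 143124747, had 144 (121 to 170). The last of its 7 body peaks, at 143296073 to 143297038, had 77 (60.8 to 96.2) and a fold of 14.8. It lay across the start of Kcnq1ot1, a long noncoding antisense RNA that starts within the imprinting control region of this gene and is expressed from the paternal copy. The peak calls do not separate the parental copies. No peak was listed between it and the gene's far end.
The 250 bases before the start of Kcnq1ot1 (chr7:143296548-143296797, minus strand, RefSeq, GRCm38.p6) are shown because this peak covers them, and they hold 5 CpGs, in capitals.
Kcnq1ot1: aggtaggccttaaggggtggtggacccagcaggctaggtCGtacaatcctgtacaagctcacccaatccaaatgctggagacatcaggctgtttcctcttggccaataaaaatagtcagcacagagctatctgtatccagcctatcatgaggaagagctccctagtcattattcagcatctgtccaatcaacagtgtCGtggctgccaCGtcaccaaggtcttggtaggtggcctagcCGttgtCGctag

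**Figure D5:**
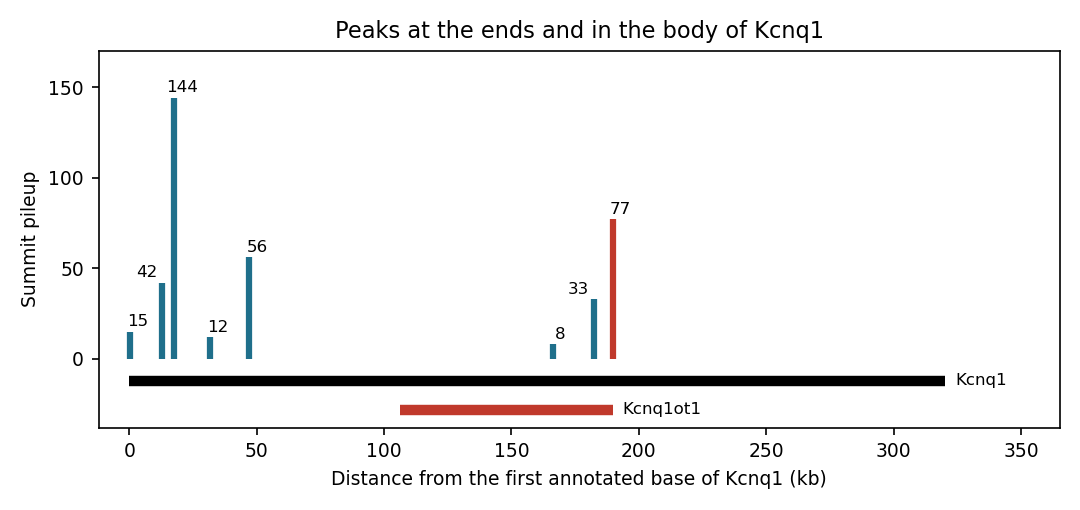
Vertical bars are the 8 peaks at the first end and in the body of Kcnq1, placed by distance from its first annotated base in kb, with the summit pileup as height. The black bar is Kcnq1 and the red bar Kcnq1ot1, whose start carries the red peak of 77. The tallest peak, 144, stands 17.6 kb into the gene.

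Outside the genes, members had a median of 4 peaks elsewhere within 50 kb, against 5 over all protein-coding genes, and 82 of 92 had at least 1 (89.1%, against 89.3%). Kcnn1 had the most with 18, and Kcnj4 and Kcnk7, with 14 each, were also among the highest. Of the 470 distinct peaks, 128 (27.2%) lay at the end of another coding gene, among them the tallest, of 236 (207 to 268) near Kcnh6, at Map3k3. Within 20 kb the median was 2, within 100 kb it was 9, and with pileups under 20 left out it was 2 within 50 kb. Members without a peak elsewhere were Kcna1, Kcna2, Kcna3, Kcna4, Kcna5, Kcnk15, Kcnmb2, Kcnn2, Kcnq5 and Kcnv2. Of these 10, 5 are Kcna genes, from a subfamily of 8.

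In 9 pairs the next member lay within 100 kb, and in 4 of them 1 gene had a gene-end peak and its neighbour had none. No pair shared a gene-end peak, though 6 pairs shared a peak of another class. Kcnj2 had 86 at its end and Kcnj16, 38.2 kb away, had none. Kcnk5 had 118 and Kcnk16, 79.6 kb away, had none. Kcnj10 had 49 and Kcnj9, 11.9 kb away, had none, but the body of Kcnj9 had a peak of 54. Kcna3 had 55, and Kcna2, 52.8 kb away, had none. In 4 pairs, Kcna2 with Kcna10, Kcnj1 with Kcnj5, Kcne1 with Kcne2 and Kcnip1 with Kcnmb1, neither gene had a gene-end peak. Kcna1 and Kcna6, 62.5 kb apart, both had one, of 24 and 21.

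Grouped by the tissue in which a channel is best known, the shares ran from 80% to 40%. Of 20 neuronal channel genes 16 had a gene-end peak (80%, 58.4 to 91.9, median pileup 26). Of 14 heart and muscle genes 10 had one (71.4%, 45.4 to 88.3, median 42.5), and of 10 genes of epithelium, glia and blood 4 had one (40%, 16.8 to 68.7, median 52). The intervals overlap, and each holds the 66.5% of all protein-coding genes. With a pileup of at least 20 required, the counts were 11 (55%), 7 (50%) and 4 (40%), beside 60.4% of all protein-coding genes. The order also depends on the use of annotated ends. A peak at a listed start was present in 9 of 11 (81.8%), 8 of 11 (72.7%) and 6 of 10 (60%), beside 66.5%. The lists differed in gene length too, with medians of 77.1, 26.9 and 29.8 kb in the same order.

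Other ion channel families gave 6 of 10 sodium channel genes with a gene-end peak (median pileup 25), 4 of 10 calcium channel pore genes (52), 4 of 4 HCN pacemaker genes (62), 12 of 22 TRP genes (37) and 7 of 9 chloride channel genes (56). Of all protein-coding genes 66.5% had one (median 66), a share inside the Wilson interval of each of these families. Among sodium channels, Scn9a of sensory neurons reached 57 and Scn2a of the brain had none. All 10 calcium channel genes (median length 135 kb) had a body peak, beside 91.6% of all protein-coding genes over 100 kb. Cacna1a, of nerve endings, held 31 body peaks. Of 19 genes whose products bind or place potassium channels, 14 were open at an end (73.7%, median pileup 24). Calm3, a calmodulin gene, was the tallest at 159. Abcc8, the partner of Kcnj11, had 17, and Dpp10, a partner of Kcnd channels, had none. All 9 genes of REST and its corepressors had one (median 71), with Rest itself at 69 and Rcor1 at 142.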

How the data were processed

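Peaks of 1 ATAC-seq library, the untreated 0 h sample, were analysed. Per the submitters' processing notes, the tools were MACS2 (version 2.2.6), Bowtie2 (version 2.3.4.1), SAMtools (version 1.9), deepTools (version 3.2.1) and bcl2fastq (version 2.20.0.422), with mm10 (GRCm38.p6) as build. Read filters, any shift for Tn5 and the total read count: not given in the sources used here. For each peak the deposited list gives an integer score (-log10 q times 10), the authors' fold enrichment (a ratio of summit pileup to local background) and the authors' -log10 p and -log10 q, at a q threshold of 0.05 without a control, per the peak names in the file. Positions are printed from 1.

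Pileups were solved from fold = (pileup + 1)/(background + 1) and the Poisson p, and came out whole for 77626 of 77629 peaks (tolerance 0.01). Depth can thus be read only from the pileups. Genes came from the RefSeq table of GRCm38.p6, and starts, strands and sequences from its promoter table. A peak needed 1 bp of overlap, and a gene-end peak was not counted again in the body. Density used the whole gene length. The members and lists were chosen with earlier results of these data known. Named genes were, per role, the 4 with the tallest gene-end peak, the 2 first in the alphabet with no peak at an end or in the body, the 5 with the most body peaks and the 5 with the most peaks elsewhere, the tallest such peaks, 15 fixed genes, members at a window's edge and those with no peak at all. Other genes were named after their values were seen, as was the split of genes over 100 kb at 300 kb. Kcnj18, in the heart and muscle list, is not in the gene table used here. Some members are counted but not reported by name here. The planned search of protein sequences was not run. The functions were tested on simulated data. Alternatives were other window widths and radii, stricter q and a pileup of at least 20. Scripts ran in Python 3.11.15 with scipy 1.17.1, statsmodels 0.14.6, pandas 2.3.3, numpy 2.4.6 and matplotlib 3.10.9.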

Additional observations from a re-analysis of the deposited data

How the results depend on the processing

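Of 68 alternative values, 55 lay inside the 95% interval of the reported value and 13 outside it. With a pileup of at least 20 required, the share of members with a gene-end peak was 57.6%, that of voltage-gated genes 73.3%, with a peak at the listed start 58.2%, with a body peak 48.9% and with neither end nor body peak 28.3%. The same rule gave 60.4% for gene ends, 33.3% for bodies and 30.8% for neither over all protein-coding genes. For listed starts it was not computed over all protein-coding genes. The median number of peaks elsewhere was then 2, and the body density of members over 100 kb was 0.369 per 100 kb, or 0.829 at a -log10 q of at least 5 (1.13 and 1.83 over all protein-coding genes of that length). With windows of 2500 bp the gene-end share was 83.7% (72.4% of all protein-coding genes), that of auxiliary subunits 73.3% and that of silent modifiers 90%. A radius of 20 kb gave a median of 2 and one of 100 kb a median of 9. The alternatives for body density were chosen after seeing the data. No paired analysis was possible because 1 sample was analysed. Pileups of 5 or fewer were not detectable at the genome-wide background, and no spread between libraries was measured.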
